A study of Mus musculus with 6 samples.

Results

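The 10 genes described here are the core and first output genes of the circadian clock: Arntl, Clock, Npas2, Cry1, Per1, Per2, Per3, Nr1d1, Nr1d2 and Dbp. They were chosen by symbol, with earlier results of these data known. Each matched 1 row of a table of 46983 genes counted by RNA sequencing of whole mouse liver. The knockout mice (AEG-1DHEP) lacked AEG-1, the product of Mtdh, in hepatocytes, and the control mice (AEG-1fl/fl) carried the floxed allele without the deletion, although their library titles call them wild type. All mice were 12 weeks old, on a C57BL/6 background, fed chow and untreated. The transgene that carried out the deletion and the clock time at which livers were taken were not given in the sources used here. The labels describe 3 mice per group, but 2 of the control columns, replicates 1 and 2, hold the same value in all rows. Every other pair of columns differed in 22902 rows or more. The 2 columns thus carry 1 set of values, not 2 similar measurements, and count here as 1 sample, control replicate 1. Which of the 2 mice these shared values describe is not known here. That left 3 knockout libraries and 2 control libraries.

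The clock of a mammalian cell is a feedback loop of transcription. The proteins of Arntl and of Clock or its relative Npas2 pair up and activate genes that carry E-box elements, among them Per1 to Per3, Cry1, Nr1d1, Nr1d2 and Dbp. PER and CRY proteins then repress that activation, and NR1D1 and NR1D2, also called REV-ERB alpha and beta, repress Arntl and Npas2 through a site named RORE, while DBP activates genes through D-box elements. In liver of mice kept in light and dark cycles, Arntl, Npas2 and Clock transcripts are known to be highest around the change from night to day, Nr1d1 and then Dbp during the day, the Per transcripts towards and after nightfall, and Cry1 later in the night.

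Sequence matches to the elements named in this loop are shown first, because the levels below are read in terms of the loop. RefSeq start sites on GRCm38.p6 were available for 9 of the 10 genes, in 13 windows of 300 bases (250 before and 50 after the start). Both strands were searched for an E-box (CACGTG), a variant E-box (CACGTT), a D-box (TTANGTAA) and an RORE (ANTAGGTNA), and no matches of different motifs overlapped in these windows. Of 32851 windows of all genes, 7.15% held the E-box, 4.685% the variant E-box, 2.323% the D-box and 2.04% the RORE. Matches were found for 5 members, and they are a description of letters, not of bound sites. Clock, Npas2, Nr1d2 and Dbp had windows without any match, Per3 had no E-box match of either form, and Per2 had no window. Capitals mark the matches. For Per1, Cry1, Nr1d1 and Per3 the stretch lies upstream of the RefSeq start, outside annotated exons. The Per1 start used is internal, since the counted gene begins at chr11:69095217 and the stretch lies within it. For Arntl each match is given with 10 bases on either side, a stretch that is within the first exon of some transcripts. They lie at chr11:69098699-69098947 on the plus strand (Per1), chr10:85185065-85185304 on the minus strand (Cry1), chr11:98775378-98775627 on the minus strand (Nr1d1), chr4:151044666-151044915 on the minus strand (Per3), and chr7:113207493-113207521 and chr7:113207529-113207557 on the plus strand (Arntl).
Per1, E-box: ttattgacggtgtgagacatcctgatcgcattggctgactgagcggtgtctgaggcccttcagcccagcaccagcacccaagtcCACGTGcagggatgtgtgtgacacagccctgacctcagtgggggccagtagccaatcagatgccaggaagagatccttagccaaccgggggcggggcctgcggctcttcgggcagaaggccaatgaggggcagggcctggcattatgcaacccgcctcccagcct
Cry1, variant E-box and E-box: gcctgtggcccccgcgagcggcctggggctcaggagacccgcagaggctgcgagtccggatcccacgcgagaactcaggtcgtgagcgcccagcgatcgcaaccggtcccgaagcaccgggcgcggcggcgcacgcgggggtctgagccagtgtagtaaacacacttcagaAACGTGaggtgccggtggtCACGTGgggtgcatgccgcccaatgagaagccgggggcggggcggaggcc
Nr1d1, variant E-box: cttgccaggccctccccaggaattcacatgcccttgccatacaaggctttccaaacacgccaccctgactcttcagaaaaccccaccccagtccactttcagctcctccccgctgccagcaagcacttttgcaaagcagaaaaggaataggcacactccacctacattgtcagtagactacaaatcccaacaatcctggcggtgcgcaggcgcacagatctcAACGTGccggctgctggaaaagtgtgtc
Per3, both D-boxes: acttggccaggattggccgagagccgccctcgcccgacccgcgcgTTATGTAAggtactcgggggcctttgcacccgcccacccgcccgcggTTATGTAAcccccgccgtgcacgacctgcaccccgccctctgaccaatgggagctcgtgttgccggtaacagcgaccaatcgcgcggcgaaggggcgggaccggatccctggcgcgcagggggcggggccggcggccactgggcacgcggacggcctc
Arntl, first RORE: ttggtcggaaAGTAGGTTAgtggtgcgac
Arntl, second RORE: gaaggcagaaAGTAGGTCAgggacggagg

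Library totals ran from 29557477 to 33685670 counts. Mtdh had 89, 74 and 76 counts in the knockout libraries and 1529 and 1612 in the control libraries, so each library went with its label. Values below are CPM, counts relative to library size after TMM scaling (a trimmed mean of log ratios between libraries). Summed markers of hepatocytes were abundant in every library, at 72508 to 102278 CPM, and Adipoq, Plin1 and Lep of the adipocyte list had at most 3 counts in any library. In 0 of 10 marker lists did the summed level separate the groups. Skeletal muscle markers summed to 22.5 CPM in knockout replicate 1 and to at most 0.25 CPM elsewhere. In whole tissue, fewer cells of a type and less RNA per cell cannot be told apart.

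The clock genes were spread widely among livers of the same genotype, and no difference between the genotypes passed the test. Knockout replicate 2 stood at one end of this spread, with high Arntl and Npas2 and low Per1, Per2 and Per3. Knockout replicates 1 and 3 stood at the other end, and the control libraries mostly lay between them. Of the 10 members, 0 passed the edgeR quasi-likelihood test of knockout against control at an adjusted p of 0.05, where 0.00608% of 16441 tested genes did.

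**Figure D1:**
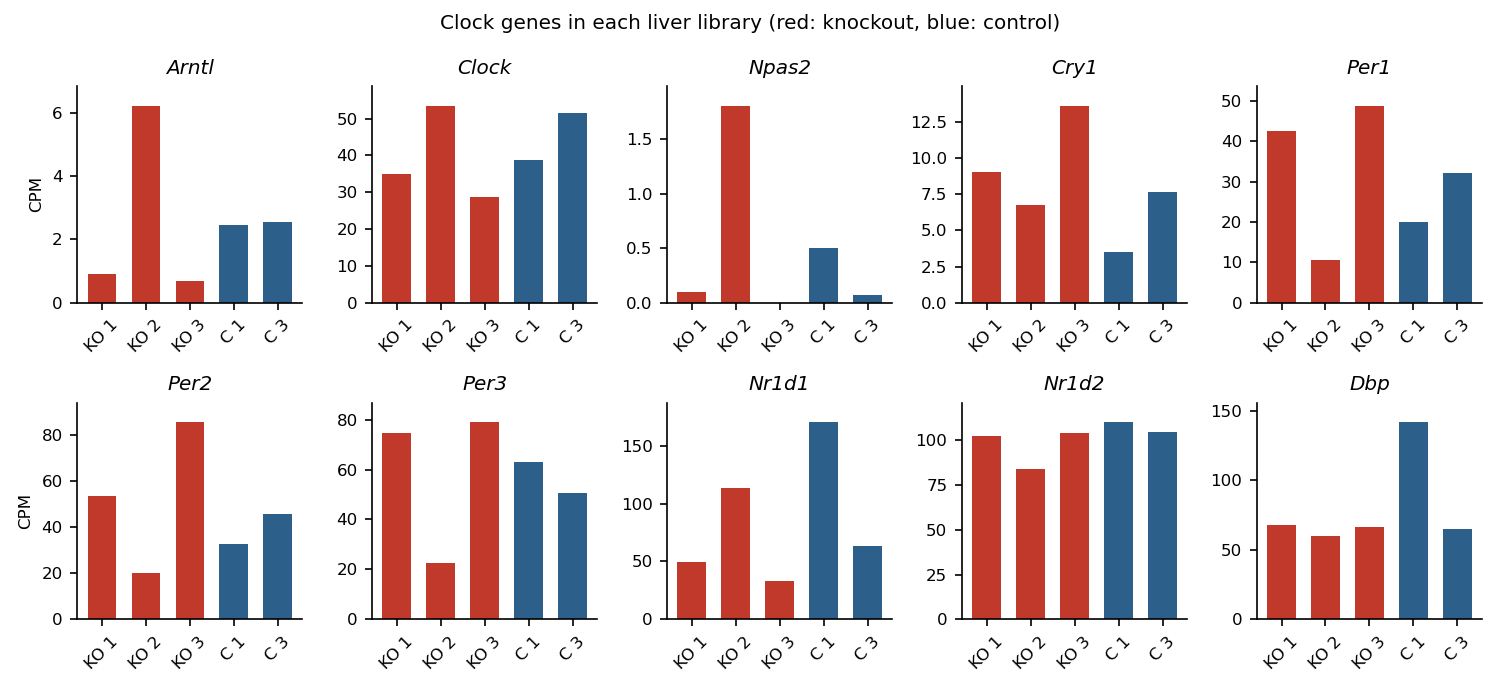
Level of each clock gene in the 5 distinct liver libraries, in CPM on an axis from 0 that differs between panels. Bars are single libraries (KO, knockout, and C, control, with the replicate number), with no error bars. Arntl and Npas2 are highest in KO 2, where Per1, Per2 and Per3 are lowest, and Nr1d1 and Dbp are highest in C 1.

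Arntl, which encodes the activator BMAL1, was at 0.912, 6.22 and 0.687 CPM in knockout replicates 1 to 3 and at 2.45 and 2.54 CPM in control replicates 1 and 3. Knockout replicate 2 was above, and the other knockout libraries below, both controls, which were nearly equal at 78 and 75 counts. Within the knockout group alone, replicate 2 held 7.77 times the mean of replicates 1 and 3. These libraries stood on 28, 206 and 22 counts, so the low values are the less precise. Npas2, the relative of Clock, was the least abundant member, with 3, 60 and 0 counts in the knockout libraries and 16 and 2 in the control libraries. Its knockout replicate 3 value of 0 allows up to 0.0891 CPM (3 counts, counting error only, on the library total). Npas2 therefore followed Arntl in being highest in knockout replicate 2, but it passed the filter on low counts only through knockout replicate 2 and control replicate 1.

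Clock, the partner of BMAL1, moved in the same direction as Arntl over a much smaller range. It was at 35.0, 53.5 and 28.7 CPM across the knockout livers against 38.7 and 51.4 CPM in the controls. The 5 libraries fell in the same order for Clock as for Arntl, from knockout replicate 3 at the bottom through knockout replicate 1, control replicate 1 and control replicate 3 to knockout replicate 2 at the top. This order was found in 1.23% of the 16441 tested genes. Some of its steps are small. For Arntl, knockout replicates 3 and 1 had 22 and 28 counts. Control replicates 1 and 3 had 78 and 75 Arntl counts, the reverse of their CPM order, so that step depends on the scaling. For Clock the top step was 53.5 against 51.4 CPM. The exact order is therefore not secure.

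The Per genes, which encode repressors of the BMAL1 and CLOCK pair, ran the opposite way. Per1 was at 42.7, 10.5 and 48.9 CPM across the knockout livers against 20.0 and 32.3 CPM in the controls. Per2 was at 53.5, 20.0 and 85.7 CPM across the knockout livers against 32.8 and 45.6 CPM in the controls. Both genes put the libraries in 1 order, from knockout replicate 2 at the bottom through control replicate 1, control replicate 3 and knockout replicate 1 to knockout replicate 3 at the top, an order found in 1.61% of tested genes. Per3 was at 74.5, 22.4 and 79.0 CPM across the knockout livers against 62.9 and 50.7 CPM in the controls. It had the same ends, with the controls exchanged. Knockout replicate 2 lay at least 2-fold below every other library. The mean of knockout replicates 1 and 3 was 4.36 times the level of replicate 2 for Per1, 3.48 times for Per2 and 3.43 times for Per3.

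Cry1, the other repressor of the pair, did not follow the Per genes at the low end. It was at 9.02, 6.76 and 13.6 CPM across the knockout livers against 3.48 and 7.66 CPM in the controls. Knockout replicate 3 was highest, as for Per1, Per2 and Per3, but control replicate 1 was lowest, with 111 counts against 224 in knockout replicate 2.

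Nr1d1, which encodes REV-ERB alpha, and Dbp were highest in control replicate 1. Nr1d1 was at 49.2, 113 and 32.9 CPM across the knockout livers against 170 and 63.0 CPM in the controls. Control replicate 1 and then knockout replicate 2 were the highest, and knockout replicate 3, where Per2 was highest, was the lowest. Nr1d1 shares 263 of its 3077 exon bases with Thra on the opposite strand, and Dbp shares 491 of 2945 with Sphk2. The counting was not stated to use strand, so reads of these stretches cannot be assigned.

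Dbp, a transcription factor of the PAR bZIP family that acts on D-boxes, was at 67.6, 60.3 and 66.5 CPM across the knockout livers against 142 and 65.1 CPM in the controls. Control replicate 1 was at least 2-fold above every other library, which was at least 2-fold above or below all others in 0.967% of tested genes, and the remaining 4 libraries were close to each other. Nr1d2 varied least of all members, at 103, 84.1 and 104 CPM across the knockout livers against 110 and 105 CPM in the controls. It was the 1 member whose groups did not overlap, by 104.465 against 104.538 CPM at the nearest libraries, while 16.9% of all tested genes had groups that did not overlap.

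The members' peaks thus fell in 3 different libraries. Knockout replicate 2 held the highest level of 3 members (Arntl, Clock and Npas2) and the lowest of 5 (Per1, Per2, Per3, Nr1d2 and Dbp). Knockout replicate 3 held the highest level of 4 (Cry1, Per1, Per2 and Per3) and the lowest of 4 (Arntl, Clock, Npas2 and Nr1d1). Control replicate 1 held the highest level of 3 (Nr1d1, Nr1d2 and Dbp) and the lowest of Cry1. Knockout replicate 1 and control replicate 3 were at neither end for any member. Over all tested genes, these libraries were the highest or the lowest in 42.2% (knockout replicate 2), 45.5% (knockout replicate 3), 42.6% (control replicate 1), 31.6% (knockout replicate 1) and 38.1% (control replicate 3). Set against the textbook order of peaks, the genes that peak around daybreak were highest in knockout replicate 2, those that peak in the day in control replicate 1, and those that peak around nightfall and later in knockout replicate 3. Not all levels sort this way. Nr1d1 was second highest in knockout replicate 2 (113 CPM), and Dbp was at 60.3 to 67.6 CPM outside control replicate 1. Clock was at 53.5 CPM in knockout replicate 2 and 51.4 CPM in control replicate 3. Clock times of harvest were not given, so a difference in time cannot be told apart from one between mice.

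Ratios of members within a library do not depend on the scaling. Dbp counts were 9.69 times Arntl counts in knockout replicate 2, 25.6 times in control replicate 3, 58.0 times in control replicate 1, 74.1 times in knockout replicate 1 and 96.7 times in knockout replicate 3. The knockout libraries thus held both the lowest and the highest of these ratios. Outside control replicate 1 the Dbp levels were close to each other, so there the ratio mostly follows Arntl. The ratios in knockout replicates 1 and 3 rest on 28 and 22 Arntl counts, so their order is not secure. Nr1d1 counts were 5.66 times Per2 counts in knockout replicate 2, 5.19 times in control replicate 1 and 1.38 times in control replicate 3, but only 0.919 times in knockout replicate 1 and 0.384 times in knockout replicate 3. The Nr1d1 to Per2 ratio placed knockout replicate 2 and control replicate 1 side by side, whereas Dbp and Arntl separated them. The mean log2 level of Dbp, the Per genes, Nr1d1 and Nr1d2 minus that of Arntl, Clock, Npas2 and Cry1, each as log2(CPM + 0.1), was 2.20 in knockout replicate 2. It was 3.95 to 4.79 in the other 4 libraries. Npas2 enters this value with 0 to 60 counts and depends on the pseudocount. The size of the gap to knockout replicate 2 therefore rests partly on Npas2, as does the order of the other libraries.

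**Figure D2:**
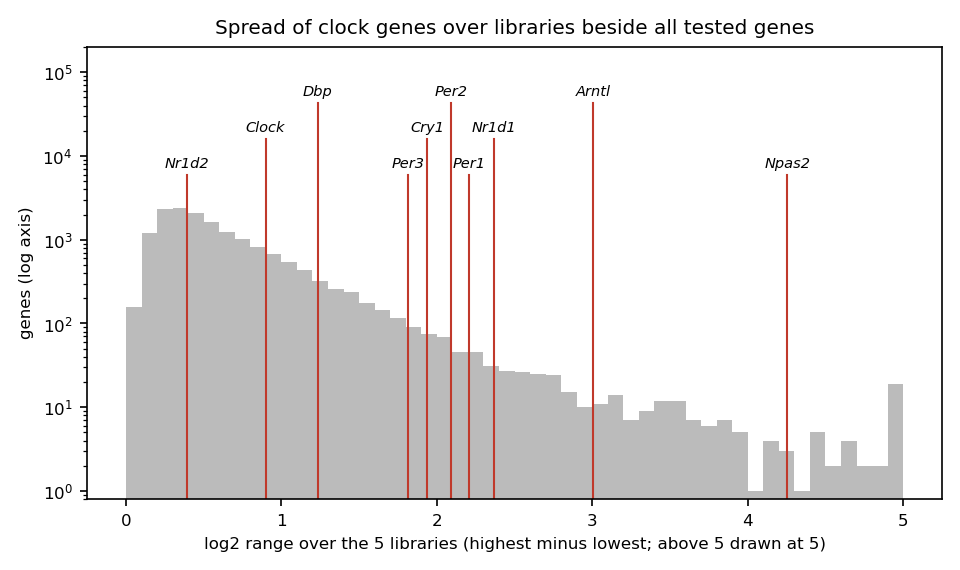
Histogram of the log2 range over the 5 libraries, as highest minus lowest log2(CPM + 0.1), for all 16441 tested genes on a log axis of gene number, with the clock genes as red lines whose height has no meaning. Npas2 (4.26) and Arntl (3.00) lie far in the tail, and Nr1d2 (0.39) lies in the bulk.

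The spread over libraries was wide for most members but not for all. The log2 range over the 5 libraries was at least 2 for 5 members, Npas2 (4.26), Arntl (3.00), Nr1d1 (2.37), Per1 (2.21) and Per2 (2.09), where 2.74% of tested genes reached it. It was at least 1 for 8 members, among them Cry1 (1.94), Per3 (1.82) and Dbp (1.24), where 17.3% of tested genes reached it. Clock (0.90) and Nr1d2 (0.39) stayed below. The Npas2 range depends on the 0.1 CPM pseudocount, since 1 library had 0 counts, and Npas2 passed the filter only through the libraries where it is high. The other 9 members therefore carry the comparison: 4 of them had a range of at least 2 and 7 a range of at least 1. It is a description only, since the members were chosen with earlier results of these data known. The median range was 1.94 for these 9 (2.02 with Npas2) and 0.50 for all tested genes. Knockout replicate 2 was at least 2-fold above or below every other library for Arntl and Per3, where 0.426% of tested genes did this. It was so for Npas2 too, with the same limits of filter and pseudocount. The biological coefficient of variation that edgeR estimated within groups had a median of 0.38 over the 9 members other than Npas2 and 0.17 over all genes, and was 1.19 for Npas2 and 0.66 for Arntl. For 8 of these 9 members the range within the knockout libraries was larger than the difference between group means, where 84.2% of all genes had this. Dbp was the exception, with a log2 range of 0.16 among the knockout libraries and 1.12 between the control libraries.

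Levels can be compared between genes per kilobase of summed exon length. On that scale Nr1d1, Dbp and Nr1d2 had the highest mean level over the 5 libraries, with 27.9, 27.3 and 20.2 CPM per kb. Per2, Per3 and Per1 followed with 8.12, 6.02 and 5.48 CPM per kb, then Clock with 3.02 and Cry1 with 2.69 CPM per kb. Arntl had 0.882 and Npas2 0.103 CPM per kb. Nr1d1 and Dbp were not separable in this order, since Nr1d1 alone ranged over more than 5-fold between libraries.

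The comparison of genotypes asks whether these transcripts differ between livers with and without AEG-1 in hepatocytes, taken at clock times that were not given. With the 5 libraries, 6 members had a positive and 4 a negative log2 fold change, with a median of 0.06 (0.05 without Npas2) beside 0.01 for all tested genes, of which 47.9% had a negative value. Cry1 had the largest positive value among members with over 100 counts in every library, 0.82 (SE 0.41, 95% interval -0.17 to 1.80), with means of 9.80 ± 3.50 CPM in knockout (SD, n = 3) and 5.57 ± 2.95 CPM in control livers (SD, n = 2). The Cry1 value was 0.35 without control replicate 1 and 1.49 without control replicate 3. Nr1d1 had -0.84 (SE 0.59, interval -2.24 to 0.56) and Dbp had -0.68 (SE 0.30, interval -1.39 to 0.04), which was -0.01 without control replicate 1. Every member had an edgeR adjusted p of 1.00. At an unadjusted p under 0.05 edgeR found 0 members, beside 3.43% of all genes. DESeq2 also called 0 members after adjustment, where it called 0.0885% of the genes it adjusted, and 2 members, Dbp and Cry1, had an unadjusted p under 0.05 in it, beside 1.93% of the genes with a p.

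The intervals were wide for the genes that varied most. They ran from -2.07 to 2.21 for Arntl, from -2.62 to 4.90 for Npas2, from -1.04 to 1.80 for Per1, from -0.85 to 1.72 for Per2 and from -1.13 to 1.22 for Per3. Differences of 2-fold either way lay inside the intervals of Arntl, Npas2, Per1 and Per3. Only Clock (-0.86 to 0.45) and Nr1d2 (-0.48 to 0.19) had intervals that lay within 1 of 0 on both sides.

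Leaving out knockout replicate 2 changed the size of these values and, for Arntl, the sign. Without it, Npas2 no longer passed the filter, and of the other 9 members 8 had groups that did not overlap, all but Dbp, where 32.8% of all genes did. Arntl then moved to a log2 fold change of -1.64 (SE 0.28) from 0.07, and Nr1d1 had -1.51 (SE 0.48) and Clock -0.50 (SE 0.18). Per1 had 0.81 (SE 0.24), Per2 0.83 (SE 0.27), Per3 0.43 (SE 0.15) and Cry1 1.03 (SE 0.40). These 7 members had an unadjusted edgeR p under 0.05, beside 4.53% of all genes, and 0 passed after adjustment, where 0.00618% of all genes did, with a lowest edgeR adjusted p of 0.994. The count of members with an unadjusted edgeR p under 0.05 was 0 of 10 without knockout replicate 1 (2.4% of all genes), without knockout replicate 3 (4.52%) and without control replicate 1 (3.15%). It was 2 of 10, Dbp and Cry1, without control replicate 3, where 6.04% of all genes had such a p. The library left out was singled out after its clock levels had been seen, so these values are a description of the remaining 4 livers.

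**Figure D3:**
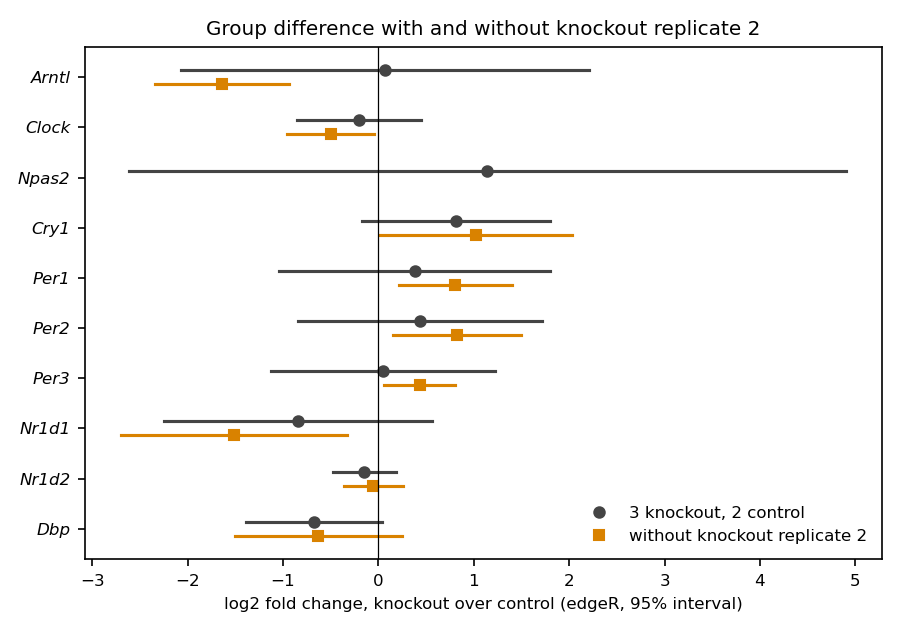
Log2 fold change of knockout over control for each clock gene by edgeR, with 95% intervals, from all 5 libraries (grey circles) and without knockout replicate 2 (orange squares, none for Npas2, which failed the filter). With all libraries every interval includes 0. Arntl moves from 0.07 to -1.64 when that library is left out.

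Other genes of the clock loop had a median log2 range of 0.36 over the libraries, beside 1.94 for the members other than Npas2. Of 13 such genes, 0 passed in either direction and 4 had a range of at least 1. Ciart, a repressor of the BMAL1 and CLOCK pair, was at 17.9, 2.44 and 21.2 CPM across the knockout livers against 13.3 and 18.6 CPM in the controls. Its knockout replicate 2 was the low library, as for the Per genes. Bhlhe41, an E-box repressor, was at 3.26, 6.91 and 6.03 CPM across the knockout livers against 11.2 and 6.88 CPM in the controls, highest in control replicate 1, as were Dbp and Nr1d1. Cry2, a relative of Cry1, and Rora, a nuclear receptor that activates at ROREs, had log2 ranges of 0.36 and 0.32 and were named after their values were seen.

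Of the PAR bZIP factors and their D-box competitor Nfil3, 0 of 3 passed. Tef, a PAR bZIP factor like DBP, was at 319, 156 and 351 CPM across the knockout livers against 296 and 289 CPM in the controls, so knockout replicate 2 alone was low. Hlf, the other relative of DBP, was at 66.8, 56.6 and 78.7 CPM across the knockout livers against 45.8 and 64.2 CPM in the controls. Nfil3 was at 8.99, 12.5 and 17.4 CPM across the knockout livers against 11.2 and 9.86 CPM in the controls. Unlike Dbp, none of these 3 was highest in control replicate 1.

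Of 12 liver output genes of the clock, 0 passed in either direction. Their median log2 range was 2.14, beside 1.94 for the members other than Npas2, and 7 had a range of at least 2. Knockout replicate 2 was the lowest library for 8 of the 12 and the highest for 2. Over all tested genes it was the lowest in 20.2% and the highest in 22.0%. Usp2, a deubiquitinating enzyme, was at 41.8, 4.65 and 62.4 CPM across the knockout livers against 22.5 and 36.2 CPM in the controls. Its order of libraries was that of Per1 and Per2, and the mean of knockout replicates 1 and 3 was 11.2 times the level of replicate 2. Noct, a circadian phosphatase, was at 54.1, 14.8 and 66.3 CPM across the knockout livers against 132 and 47.6 CPM in the controls, combining a low knockout replicate 2 with a high control replicate 1. Elovl3, a fatty acid elongase, went the other way, at 56.3, 262 and 14.4 CPM across the knockout livers against 58.4 and 68.7 CPM in the controls, in the order of Arntl and Clock.

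**Figure D4:**
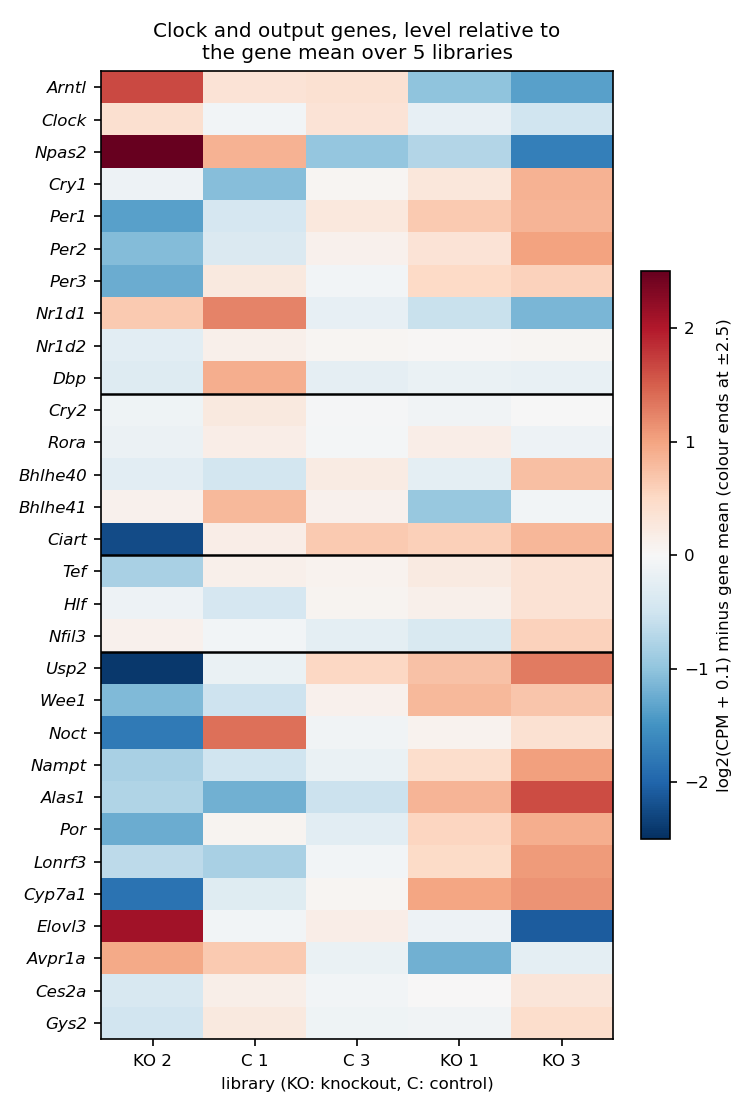
Level of the clock genes (top block), of 5 other loop genes, of the PAR bZIP factors with Nfil3, and of 12 liver output genes (bottom block), as log2(CPM + 0.1) minus the gene's mean over 5 libraries, red above and blue below. Columns are single libraries in the order of Per1 and Per2, not by genotype, so KO 2 and KO 3 are at the ends and the controls lie between the knockouts.

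Metabolic enzymes of the output list were named after their values were seen. Cyp7a1, the rate-limiting enzyme of bile acid synthesis, was at 281, 39.2 and 307 CPM across the knockout livers against 114 and 146 CPM in the controls. Nampt, which makes an NAD precursor, was at 118, 49.2 and 178 CPM across the knockout livers against 61.7 and 77.5 CPM in the controls. Both followed the order of Per1 and Per2. Alas1, the first enzyme of haem synthesis, was at 713, 235 and 1218 CPM across the knockout livers against 171 and 270 CPM in the controls, so knockout replicate 2 lay between the controls. It was the 1 output gene with an unadjusted edgeR p under 0.05, with a log2 fold change of 1.71 (SE 0.64) and an edgeR adjusted p of 1.00.

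Genes that respond to glucocorticoid, temperature or feeding cues, which can set the liver clock, were compared as a list of 9, of which 0 passed in either direction. Cdkn1a, a cell cycle inhibitor, was at 1.60, 9.38 and 0.875 CPM across the knockout livers against 2.13 and 1.86 CPM in the controls, so knockout replicate 2 was high as for Arntl. Lpin1, a phosphatidate phosphatase, was at 162, 86.1 and 314 CPM across the knockout livers against 64.9 and 121 CPM in the controls, highest in knockout replicate 3. Hspa1b, a heat shock chaperone, was at 6.48, 6.61 and 13.1 CPM across the knockout livers against 2.89 and 6.54 CPM in the controls, again highest in knockout replicate 3. Rbm3, a cold-inducible RNA-binding protein, was higher in every knockout library (13.4 to 17.5 CPM) than in the controls (10.6 and 11.4 CPM). It had an unadjusted edgeR p of 0.0247 and an edgeR adjusted p of 1.00. Of the 9 genes, 2 had groups that did not overlap, Rbm3 and Fkbp5, beside 16.9% of all tested genes. Cirbp, also a cold-inducible RNA-binding protein, had an edgeR log2 fold change of -0.007. Rbm3, Fkbp5 and Cirbp were named after their values were seen. Over all 4 lists, 37 genes were tested and 0 were called by edgeR or DESeq2, while 2 by edgeR and 4 by DESeq2 had an unadjusted p under 0.05, beside 3.43% and 1.93% of all genes with a p.

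The genes nearest in pattern to Arntl and to Dbp were ranked among 10083 other genes with a mean of at least 5 CPM, by the root mean square distance of their log2(CPM + 0.1), centred on each gene's mean, over 5 libraries. Nearest to Arntl were Dtx4 (0.33), Spon2 (0.36), Gas7 (0.39), Asap2 (0.41) and Clpx (0.42). Clpx, a subunit of a mitochondrial protease, was at 69.0, 205 and 53.1 CPM across the knockout livers against 107 and 112 CPM in the controls, a smaller range than that of Arntl with knockout replicate 2 again on top. Nearest to Dbp were Ppargc1b (0.10), Aldh1b1 (0.10), Agxt (0.11), Lpl (0.12) and Whamm (0.13). Agxt, a peroxisomal aminotransferase, was at 225, 246 and 223 CPM across the knockout livers against 481 and 217 CPM in the controls, so control replicate 1 alone was high. Likeness to Dbp therefore rests on that 1 library.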

How the data were processed

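Per the labels' protocols, TruSeq libraries of whole-liver RNA were read on a HiSeq2500. The authors deposited raw counts of reads for each gene, and the submitters' processing notes name featureCounts 1.4.6-p4, Subread 1.4.6-p4 and Trimmomatic 0.33 with the builds mm10 and GRCm38. Per the file headers, each row also gives the summed exon length. Multi-mapping and strand settings were not given in the sources used here. GENCODE vM21, on the same build, named 46488 of 46983 rows. The labels call the libraries biological replicates.

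Genes passing edgeR's filterByExpr (16441) were scaled by TMM and tested with the edgeR 4.0.16 quasi-likelihood F test, two-sided, with Benjamini-Hochberg adjustment over all of them and a threshold of 0.05 (R 4.3.3, limma 3.58.1, DESeq2 1.42.0). The test was also run on simulated counts, whose recovery of set changes is not reported here. Alternatives were DESeq2, limma-voom, other scalings, no filter, a replicate block, all 6 columns and leaving out each library. The members and lists were chosen with earlier results of these data known. Genes named beyond the members were, by rule, the 3 widest-ranging of each list, any called gene and the 5 nearest to Arntl and to Dbp. Some results under that rule are not reported here. Other genes are marked in the text as named after their values were seen. The 95% intervals come from the edgeR fit and follow the spread between libraries, whereas the floor of 3 counts covers counting error only, since reads carry no molecular identifiers.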

Additional observations from a re-analysis of the deposited data

How the results depend on the processing

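The count of clock members past the threshold was 0 in every fit run, as was that of the wider lists, and the ratios of Dbp to Arntl did not change with scaling. The count of all genes past the threshold was 1 in the comparison reported, 18 with DESeq2, 3 with no low-count filter, 0 with the replicate block and 1 to 6 with 1 library left out, the 6 being without control replicate 3, which leaves 1 control assumed to vary like the knockouts. The members' median log2 fold change, 0.06, was -0.20 with limma-voom, -0.27 with the replicate block and -0.060 to 0.057 with 1 library left out. No member changed sign with DESeq2, upper-quartile scaling, library totals or no filter. With limma-voom, Arntl was at -0.63, Npas2 at -0.50 and Per3 at -0.15, and Per3 was at -0.003169 on all 6 columns. With 1 library left out, the values ran from -1.64 to 0.52 for Arntl, -0.50 to 0.017 for Clock, -0.10 to 0.83 for Per2, -0.23 to 0.43 for Per3, -1.51 to 0.043 for Nr1d1, -1.13 to -0.01 for Dbp, 0.35 to 1.49 for Cry1, 0.02 to 0.81 for Per1 and, over the 4 fits that kept it, 0.36 to 3.17 for Npas2. Members with an unadjusted edgeR p under 0.05 numbered 2, Dbp and Cry1, with no low-count filter (3.45% of all genes) and on all 6 columns (9.79%), and 0 after adjustment in both. The cause of these shifts was not tested, beyond the library named in each fit.

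With the replicate number as a block, Arntl was at -1.64 and Npas2 at -2.48, and 7 of 10 members had an unadjusted edgeR p under 0.05, beside 4.69% of all genes, with 0 after adjustment. In that fit knockout replicate 2 has a block of its own, since control replicate 2 was merged, so it adds nothing to the group difference. Mtdh then had an edgeR adjusted p of 0.052. The libraries share only a number, and only 2 pairs remain. Deviations from the group means correlated over genes at 0.06 for the libraries numbered 1 and 0.15 for those numbered 3. Knockout replicate 2 with control replicate 1, an unmatched pair, gave 0.11. With 2 controls, each value is the reverse of that with the other control. These values therefore cannot show whether the numbers mark pairs. Depth limits Npas2 and Arntl most, with 0 to 60 and 22 to 206 counts.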
